A study of Mus musculus with 8 samples.

Results

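mTORC1 is a protein kinase complex that couples nutrient and growth factor supply to protein synthesis. The 10 genes described here encode its kinase complex (*Mtor*, *Rptor*, *Mlst8*, *Akt1s1* and *Deptor*), the small GTPase that activates it and the brake on that GTPase (*Rheb*, *Tsc1* and *Tsc2*), a subunit of the GTPase pair that brings it to the lysosome (*Rragc*) and a translation repressor that it phosphorylates (*Eif4ebp1*). They were taken by gene symbol from a list written with earlier results of these data known, and all 10 were found among the 48709 genes listed in the count table. Their RNA was measured by RNA sequencing in 8 mouse lung tumors, 4 labelled *K-Ctrl* and 4 labelled *K-Setd2KO*. Both groups were tumors of the study's *K* mouse model, in which a conditional allele is switched on by Cre recombinase. In both, the tumors were started in the lung by a lentiviral CRISPR vector that also carried Cre, with a non-targeting control guide RNA in *K-Ctrl* and a guide RNA against *Setd2*, the gene of the enzyme that trimethylates lysine 36 of histone H3, in *K-Setd2KO*. The study matched the tumors for stage, and the *K-Setd2KO* tumors were low grade adenomas. The labels give no age, and they do not say whether the tumors of a group came from separate mice, so the p-values measure the spread between these tumors. The comparison asks whether the genes of the mTORC1 machinery differ in RNA level between tumors with and without the *Setd2* guide RNA.

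mTOR works in more than one complex, and in mTORC1 it is joined by Raptor, which recruits substrates, and by the small subunit mLST8. GTP-bound RHEB on the lysosome switches the kinase on, and the TSC1-TSC2 complex, held back by AKT, switches RHEB off. Amino acids act through the RAG GTPases, which are controlled by the GATOR1, GATOR2, KICSTOR, Ragulator and folliculin complexes. Once active, mTORC1 phosphorylates S6 kinases and 4E-BP proteins, and the 4E-BPs then release the cap-binding protein eIF4E so that translation can start. Much of this control acts on proteins and on where they sit in the cell, and RNA counts do not measure it.

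Total counts per tumor ranged from 5806599 to 21290402, a 3.67-fold range, and the shallowest library was *K-Setd2KO* replicate 4. *Setd2* itself was at 140 ± 8.81 CPM (read counts scaled to a common library size with edgeR's TMM factors; mean ± SD, n = 4) in *K-Ctrl* against 136 ± 15.5 CPM in *K-Setd2KO*, with an edgeR log2 fold change of -0.05 (adjusted p = 0.824). Guide RNAs leave small insertions and deletions that need not lower a count, so this level does not check the labels. By *Xist* and Y-linked RNA, 3 tumors of *K-Ctrl* and 1 of *K-Setd2KO* were male, and sex and genotype are therefore partly aligned. Several markers of immune and stromal cells were called lower in *K-Setd2KO*. The summed level of 6 pan-leukocyte markers was 462 to 898 CPM in *K-Ctrl* against 166 to 235 CPM in *K-Setd2KO*, with 4 of the 6 called lower and a median log2 fold change of -1.54. Of 7 macrophage markers, 4 were called lower (median -1.70), as were 1 of 6 T cell markers (-1.72), 1 of 6 endothelial markers (-1.42) and 1 of 6 fibroblast markers (-0.89). None of the B cell (median -2.14), club cell (-1.23), erythroid (-1.74), smooth muscle (-0.96) or neutrophil (0.53) markers was called. Alveolar type 2 markers were high in both groups (summed level 39459 to 58966 CPM and 47224 to 65869 CPM, median log2 fold change -0.00, 1 of 6 higher and 1 lower). They mark a lung cell type, and their level does not check the tumor label. Of 5 alveolar type 1 markers 1 was called lower (median -0.23), and of 5 epithelial markers 2 were called higher (0.44). No marker was at 0 in all 8 tumors. In bulk tumors, fewer cells of a type and less RNA per cell cannot be told apart, and the part of these cell types in the results below was not tested.

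One of the 10 genes, *Deptor*, was called lower in *K-Setd2KO* tumors, none was called higher, and 9 did not pass the test. A gene was called at an edgeR quasi-likelihood adjusted p under 0.05, with Benjamini-Hochberg adjustment over all 14929 genes tested. In that comparison 12.7% of the genes tested were called, 4.97% higher and 7.74% lower, so 1 of 10 is near the share over all genes. DESeq2 called 21.4% of the same genes, and *Deptor* was again the one gene of the 10 called. The median log2 fold change of the 10 genes was -0.03, beside 0.03 over all genes tested, and the 9 genes other than *Deptor* lay between -0.24 and 0.40.

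**Figure D1:**
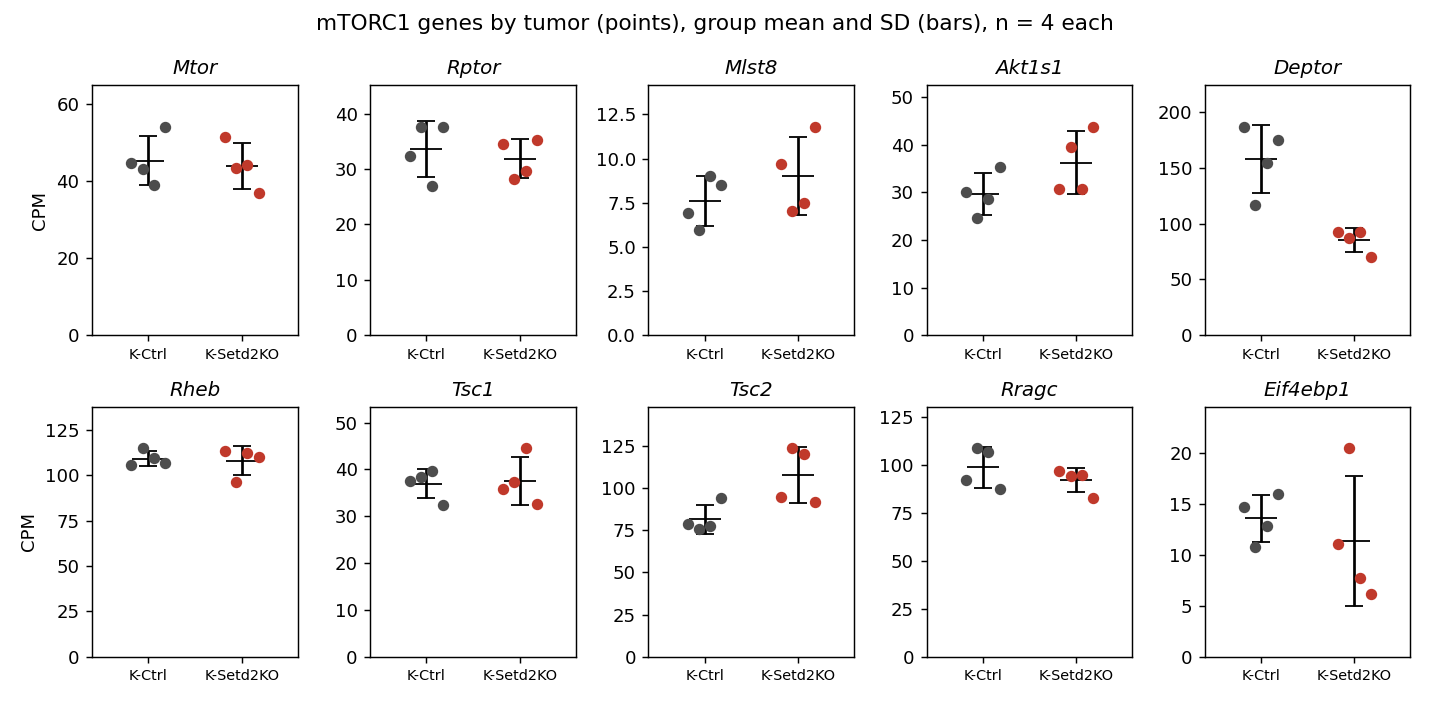
Level of each of the 10 mTORC1 genes in CPM (vertical axis, from 0) in the 4 *K-Ctrl* tumors (grey points) and the 4 *K-Setd2KO* tumors (red points), with the group mean and SD as bars. *Deptor* is the gene whose groups do not overlap (117 to 187 CPM against 69.8 to 92.8 CPM), and *Eif4ebp1* has the widest spread relative to its mean, in *K-Setd2KO*.

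Within the kinase complex, the kinase and its substrate-recruiting subunit were at similar levels in both groups. *Mtor* (chr4:148448611-148557683, GRCm38, plus strand), which encodes the kinase, was at 44.8, 43.2, 39.0 and 54.1 CPM in *K-Ctrl* replicates 1 to 4 and at 51.4, 43.2, 44.2 and 36.8 CPM in *K-Setd2KO* replicates 1 to 4. The groups overlapped over most of their range, with a control tumor the highest of the 8 and a *K-Setd2KO* tumor the lowest. The means were 45.3 ± 6.36 and 43.9 ± 5.98 CPM (SD, n = 4 each), and the log2 fold change was -0.04 ± 0.15 (SE), with a 95% interval of -0.37 to 0.29 and an edgeR adjusted p of 0.879. *Rptor* (chr11:119602905-119899576, plus strand), the gene of Raptor, was at 32.4, 37.6, 27.0 and 37.7 CPM in *K-Ctrl* and at 34.5, 28.1, 29.7 and 35.3 CPM in *K-Setd2KO*. All *K-Setd2KO* values fell inside the control range. The log2 fold change of *Rptor* was -0.08 (95% interval -0.42 to 0.26, edgeR adjusted p = 0.770).

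*Mlst8* (chr17:24473550-24479078, minus strand), whose product binds the kinase domain, was the lowest of the 10 genes per length in *K-Ctrl*, with 69 to 195 counts per tumor over all 8. Its level was 6.89, 5.97, 9.002 and 8.48 CPM in *K-Ctrl* against 9.71, 7.04, 7.48 and 11.8 CPM in *K-Setd2KO*. The 2 highest values were *K-Setd2KO* tumors and the 2 lowest were *K-Ctrl* tumors, with the rest intermixed. *Mlst8* had a log2 fold change of 0.24 ± 0.24 (SE), with a 95% interval of -0.31 to 0.79 (edgeR adjusted p = 0.544), and the value was 0.09 without *K-Setd2KO* replicate 4, the shallowest library, and at most 0.34 without any other tumor.

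*Akt1s1* (chr7:44848991-44855421, plus strand) encodes PRAS40, an inhibitory subunit that AKT phosphorylates. It was at 30.1, 24.7, 28.7 and 35.4 CPM in *K-Ctrl* and at 30.7, 39.6, 30.6 and 43.8 CPM in *K-Setd2KO*. All 4 *K-Setd2KO* tumors were above the control mean of 29.7 CPM, but 2 of them were below the highest control tumor. For *Akt1s1* the log2 fold change was 0.28, with a 95% interval of -0.10 to 0.66 and an edgeR adjusted p of 0.300. Exons of *Akt1s1* overlap those of *Tbc1d17* on the other strand, whose log2 fold change was 0.46 (edgeR adjusted p = 0.0739). Whether counting used the read strand is not given in the sources used here, and without strand the reads of such a pair cannot be told apart.

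*Deptor* encodes an inhibitory subunit that binds mTOR in both of its complexes. The gene lies at chr15:55112317-55259271 on the plus strand, and its exons overlap one gene, *Gm9920*, which had 94 counts over all 8 tumors. *Deptor* was at 187, 117, 155 and 175 CPM in *K-Ctrl* replicates 1 to 4. In *K-Setd2KO* replicates 1 to 4 it was at 92.8, 87.3, 92.6 and 69.8 CPM. The groups did not overlap, and the lowest control tumor, replicate 2, was the control tumor called female. Over all genes tested, 20.3% had groups that did not overlap.

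From 158 ± 30.6 CPM to 85.6 ± 10.8 CPM (SD, n = 4 each), *Deptor* fell by 46.0%, a log2 fold change of -0.89 ± 0.17 (SE) with a 95% interval of -1.26 to -0.51. The edgeR adjusted p was 0.0130, and the two-sided exact permutation p over the 70 assignments of 4 tumors to each group was 0.0286, the smallest that this design allows. The call held in all 18 alternative fits, with adjusted p from 4.7e-05 to 0.0455, and the value without any one tumor was -1.01 to -0.80. With sex as a term the log2 fold change was -0.69 (edgeR adjusted p = 0.0455). Among tumors of the same sex, the mean log2 level was 0.89 lower in the *K-Setd2KO* male than in the 3 *K-Ctrl* males and 0.50 lower in the 3 *K-Setd2KO* females than in the *K-Ctrl* female.

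**Figure D2:**
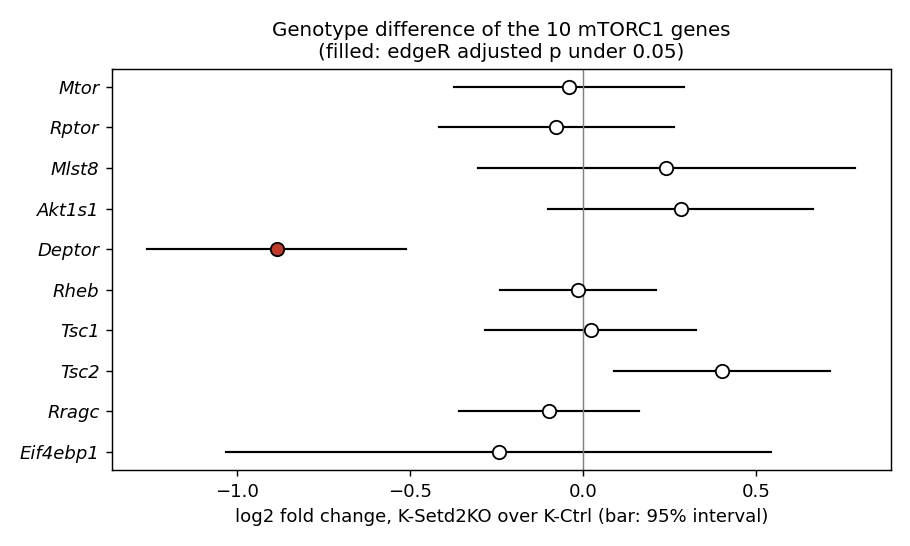
Log2 fold change of *K-Setd2KO* over *K-Ctrl* (horizontal axis) for each of the 10 genes, with 95% intervals from the edgeR fit as bars and n = 4 tumors in each group. *Deptor*, the filled point at -0.89, is the one called; *Tsc2*, at 0.40, has an interval of 0.09 to 0.71 and an adjusted p of 0.0881.

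In the RHEB and TSC arm, none of the 3 genes was called. *Rheb* (chr5:24802823-24842624, minus strand), the GTPase that activates the kinase, was at 106, 115, 110 and 107 CPM in *K-Ctrl* and at 114, 96.2, 112 and 110 CPM in *K-Setd2KO*. It varied least of the 10 genes among the control tumors (coefficient of variation 3.77%), and the groups overlapped. Its log2 fold change was -0.01 ± 0.10 (SE), with a 95% interval of -0.24 to 0.21 (edgeR adjusted p = 0.937).

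*Tsc1* and *Tsc2* encode the scaffold and the GTPase-activating subunit of the complex that switches RHEB off. *Tsc1* (chr2:28641228-28691167, plus strand) was at 37.4, 38.4, 39.7 and 32.4 CPM in *K-Ctrl* and at 35.8, 37.3, 44.5 and 32.5 CPM in *K-Setd2KO*. The lowest tumors of both groups were nearly equal, and the highest of the 8 was *K-Setd2KO* replicate 3. The log2 fold change of *Tsc1* was 0.02, with a 95% interval of -0.28 to 0.33 (edgeR adjusted p = 0.933), and its sign turned without *K-Setd2KO* replicate 3 (-0.07) and without *K-Ctrl* replicate 4 (-0.04).

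*Tsc2* (chr17:24595937-24632629, minus strand) was at 78.9, 75.6, 77.7 and 94.3 CPM in *K-Ctrl* and at 94.8, 124, 120 and 91.9 CPM in *K-Setd2KO*. All 4 *K-Setd2KO* tumors were above the control mean, and *K-Ctrl* replicate 4 was above 1 of them, so the groups overlapped. *Tsc2* had a log2 fold change of 0.40 ± 0.14 (SE), with a 95% interval of 0.09 to 0.71 and an unadjusted edgeR p of 0.0173. It did not pass after adjustment (adjusted p = 0.0881), nor in any of the 18 alternative fits, in which the adjusted p ranged from 0.0518 by DESeq2 to 0.204, and the exact permutation p was 0.0571. Over all genes tested, 29.9% had an unadjusted p under 0.05. Exons of *Tsc2* overlap those of *Pkd1* on the other strand, and *Pkd1* had a log2 fold change of -0.28 (edgeR adjusted p = 0.216). The difference in *Tsc2* was 0.53 on the log2 scale among males and 0.44 among females.

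In the RAG arm, *Rragc*, the gene of the subunit RagC, did not pass the test, while the genes of 2 other subunits were called lower. RagC or RagD pairs with RagA or RagB, and the pair holds mTORC1 at the lysosome when amino acids are present. TFEB, TFE3 and MYC family factors bind a DNA motif called the E-box, CACGTG, and *Rragd* is a known target of TFEB. The upstream sequences of *Rragc* and of the 2 genes called lower are shown so that the motif can be seen in them. The sequences are from RefSeq on GRCm38.p6, cover the 250 bases before the annotated start, and read 5′ to 3′ on the plus strand, which is the strand of all 3 genes. Capitals mark CACGTG, which reads the same on both strands.
Rragc promoter, chr4:123917183-123917432: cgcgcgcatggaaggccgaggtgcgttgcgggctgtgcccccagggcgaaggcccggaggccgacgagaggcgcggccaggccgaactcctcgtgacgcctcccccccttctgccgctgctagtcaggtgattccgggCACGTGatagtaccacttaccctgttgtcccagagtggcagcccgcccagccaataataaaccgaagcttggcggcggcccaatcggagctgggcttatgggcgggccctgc
Rragb promoter, chrX:153139708-153139957: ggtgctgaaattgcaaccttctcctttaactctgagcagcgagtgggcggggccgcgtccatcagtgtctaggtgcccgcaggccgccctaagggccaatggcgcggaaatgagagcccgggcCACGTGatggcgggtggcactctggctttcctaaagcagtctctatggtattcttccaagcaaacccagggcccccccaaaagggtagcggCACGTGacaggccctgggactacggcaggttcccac
Rragd promoter, chr4:32982748-32982997: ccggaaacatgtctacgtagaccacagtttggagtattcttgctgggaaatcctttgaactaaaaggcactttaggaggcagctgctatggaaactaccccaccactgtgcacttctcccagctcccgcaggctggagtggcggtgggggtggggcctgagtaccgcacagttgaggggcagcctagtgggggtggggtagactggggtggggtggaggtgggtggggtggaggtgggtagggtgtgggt
The E-box letters were present 1 time in the *Rragc* window, 112 bases before the start, and 2 times in the *Rragb* window, 127 and 36 bases before the start. They were in neither the *Rragd* nor the *Rraga* window. Of 32851 promoter windows of the same length, 6.02% held CACGTG. Among the 10 genes, promoter sequences were found for 8 (not for *Deptor* and *Eif4ebp1*), and 2 of the 8 windows, those of *Rheb* and *Rragc*, held CACGTG. A match is a description of these letters and not a binding site.

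*Rragc* (chr4:123917446-123936997, plus strand) was at 92.0, 109, 107 and 87.3 CPM in *K-Ctrl* and at 96.7, 94.5, 94.8 and 82.5 CPM in *K-Setd2KO*. All 4 *K-Setd2KO* tumors were below the control mean of 98.7 CPM, but 3 of them were above the lowest 2 control tumors. *Rragc* had a log2 fold change of -0.10 ± 0.12 (SE), with a 95% interval of -0.36 to 0.16 and an edgeR adjusted p of 0.607.

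*Rragd*, which encodes the alternative partner RagD, was at 26.2, 35.2, 28.7 and 18.7 CPM in *K-Ctrl* and at 7.19, 19.6, 5.999 and 5.31 CPM in *K-Setd2KO*. The *K-Setd2KO* tumors other than replicate 2 were well below every control tumor, and *K-Setd2KO* replicate 2 was just above *K-Ctrl* replicate 4. For *Rragd* the log2 fold change was -1.50 ± 0.42 (SE), with an edgeR adjusted p of 0.0480 and an exact permutation p of 0.0571. The call was kept in 10 of 18 alternative fits. Without *K-Ctrl* replicate 1, 2 or 3 the adjusted p was 0.0943, 0.104 and 0.108, and without *K-Setd2KO* replicate 1, 3 or 4 it was 0.103, 0.115 and 0.0932. Without *K-Setd2KO* replicate 2 the log2 fold change was -2.13 (adjusted p = 0.00693).

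*Rragb*, which encodes RagB, was at 3.45, 2.02, 2.95 and 3.75 CPM in *K-Ctrl* and at 0.565, 1.68, 0.923 and 1.03 CPM in *K-Setd2KO*, from 6 to 64 counts per tumor. There was no overlap, at a level far below that of *Rraga*. The log2 fold change was -1.54 ± 0.42 (SE; edgeR adjusted p = 0.0428). The call was kept in 6 of 17 alternative fits, and among the fits without 1 tumor it was kept in the one without *K-Setd2KO* replicate 2. In the others the adjusted p was 0.0574 (without *K-Ctrl* replicate 2) to 0.108 (without *K-Ctrl* replicate 1), and with sex as a term it was 0.148. *Rraga*, which encodes RagA and carries most of the RagA and RagB RNA, was at 70.9 to 76.3 CPM in *K-Ctrl* against 73.8 to 88.5 CPM in *K-Setd2KO* (log2 fold change 0.13, edgeR adjusted p = 0.410). RagA and RagB are close copies, and how reads shared by their genes were counted is not given in the sources used here.

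*Eif4ebp1* (chr8:27260329-27276674, plus strand) encodes 4E-BP1, the repressor of eIF4E that mTORC1 inactivates by phosphorylation. It was at 14.7, 10.8, 12.8 and 16.0 CPM in *K-Ctrl* and at 11.1, 20.4, 7.75 and 6.16 CPM in *K-Setd2KO*. *K-Setd2KO* replicate 2 was the highest of the 8 tumors and replicates 3 and 4 the lowest, and the coefficient of variation was 56.2% in *K-Setd2KO* against 16.7% in *K-Ctrl*. Its log2 fold change was -0.24 ± 0.35 (SE), with a 95% interval of -1.03 to 0.54 (edgeR adjusted p = 0.680), so this gene is the least well determined of the 10. Without *K-Setd2KO* replicate 2 it was -0.69 (adjusted p = 0.109), and without replicate 4 it was -0.05 (adjusted p = 0.931). With sex by expression, the difference was -0.88 among males and 0.06 among females on the log2 scale.

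Levels of different genes were compared per length, as CPM per kb of summed exon. In *K-Ctrl* tumors, *Rragc* was the highest of the 10 genes at 29.5 CPM per kb (range 26.1 to 32.5), above *Deptor* at 17.8 (13.2 to 21.1) in all 4 tumors. *Rheb* at 14.1 and *Tsc2* at 13.6 CPM per kb followed, and the ranges of *Deptor*, *Rheb* and *Tsc2* overlapped from each to the next. *Akt1s1* was at 9.68 and *Eif4ebp1* at 6.17 CPM per kb. The 4 lowest were *Mtor* at 4.48, *Tsc1* at 3.13, *Rptor* at 2.498 and *Mlst8* at 2.25 CPM per kb. By this measure the RNAs of the kinase and of the 2 subunits that complete the active core were among the scarcest of the set. The order depends on the summed exon length used. The ranges of *Eif4ebp1* and *Mtor*, of *Tsc1* and *Rptor*, and of *Rptor* and *Mlst8* overlapped.

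In *K-Setd2KO* tumors, *Rragc* was again the highest at 27.6 CPM per kb, followed by *Tsc2* at 17.9, *Rheb* at 14.0, *Akt1s1* at 11.8 and *Deptor* at 9.65 CPM per kb. *Deptor* was thus the second of the 10 in *K-Ctrl* and the fifth in *K-Setd2KO*. In *K-Setd2KO* its range of 7.87 to 10.5 overlapped that of *Akt1s1* (9.97 to 14.3), and *Akt1s1* was above *Deptor* in 2 of the 4 tumors. *Eif4ebp1* at 5.17, *Mtor* at 4.34, *Tsc1* at 3.17, *Mlst8* at 2.68 and *Rptor* at 2.37 CPM per kb came last, and each overlapped the next. *Mlst8* and *Rptor* changed places between the groups, and their ranges overlapped in both.

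**Figure D3:**
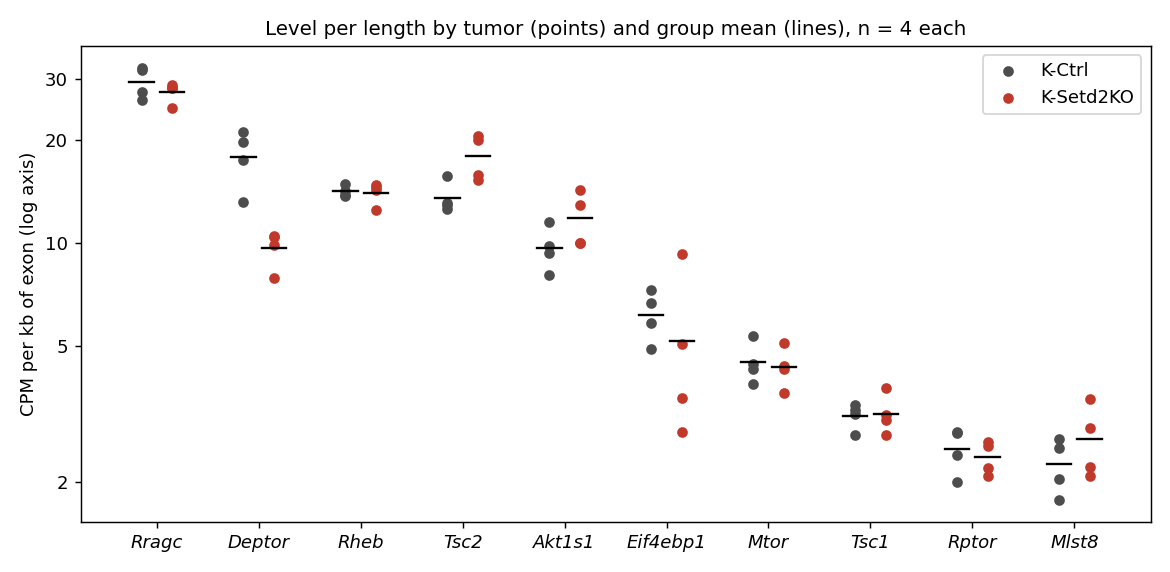
Level of the 10 genes in CPM per kb of exon (vertical log axis), ordered by their *K-Ctrl* mean, with 1 point per tumor (grey *K-Ctrl*, red *K-Setd2KO*, n = 4 each) and lines for the group means. *Rragc* is highest in both groups at 29.5 and 27.6 CPM per kb, and *Deptor* drops from 17.8 to 9.65 CPM per kb.

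A ratio of 2 genes within a tumor does not depend on how libraries are scaled, so 9 ratios were compared as a description. All were taken from CPM per kb of exon. The log2 ratio of *Deptor* to *Mtor* was 2.25, 1.63, 2.18 and 1.88 in *K-Ctrl* against 1.04, 1.202, 1.25 and 1.11 in *K-Setd2KO*. It was the one ratio of the 9 whose groups did not overlap, and the mean over tumors of the linear *Deptor* to *Mtor* ratio was 4.01 in *K-Ctrl* against 2.23 in *K-Setd2KO*. The ratios of *Rptor*, *Mlst8* and *Akt1s1* to *Mtor* differed between the group means by -0.03, 0.28 and 0.32 on the log2 scale, with overlapping groups. Without 1 tumor the difference ran from 0.06 to 0.44 for *Mlst8* and from 0.14 to 0.47 for *Akt1s1*, both lowest without *K-Setd2KO* replicate 4. *Tsc1* to *Tsc2* was lower by 0.38, *Rheb* to *Tsc2* lower by 0.41 and *Rragc* to *Rraga* lower by 0.23 on the log2 scale in *K-Setd2KO*, each with overlapping groups. The log2 ratio of *Eif4ebp1* to *Eif4e*, the gene of the protein it binds, ranged from -2.49 to 0.22 in *K-Setd2KO* and from -1.10 to -0.72 in *K-Ctrl*. The log2 ratio of *Eif4ebp1* to its paralog *Eif4ebp2* differed by -0.29 between the group means, with overlapping groups, by -0.55 without *K-Setd2KO* replicate 2 and by 0.03 without *K-Setd2KO* replicate 4. Without replicate 4 the difference for *Eif4ebp1* to *Eif4e* turned from -0.34 to 0.08, and that for *Rptor* to *Mtor* ran from -0.16 to 0.05 without 1 tumor.

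Around these 10 genes, 70 others of the mTOR pathway were taken from fixed lists, and 69 of them had enough counts to be tested (*Eif4ebp3* did not, with 0 to 9 counts per tumor). Of the 69, 12 were called, 6 higher and 6 lower in *K-Setd2KO*, which is 17.4% beside the 12.7% of all genes. Their median log2 fold change was 0.11, and the values ran from -1.54 to 1.12. The count depended on the fit, and each of the 12 calls was lost in at least 1 alternative fit.

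**Figure D4:**
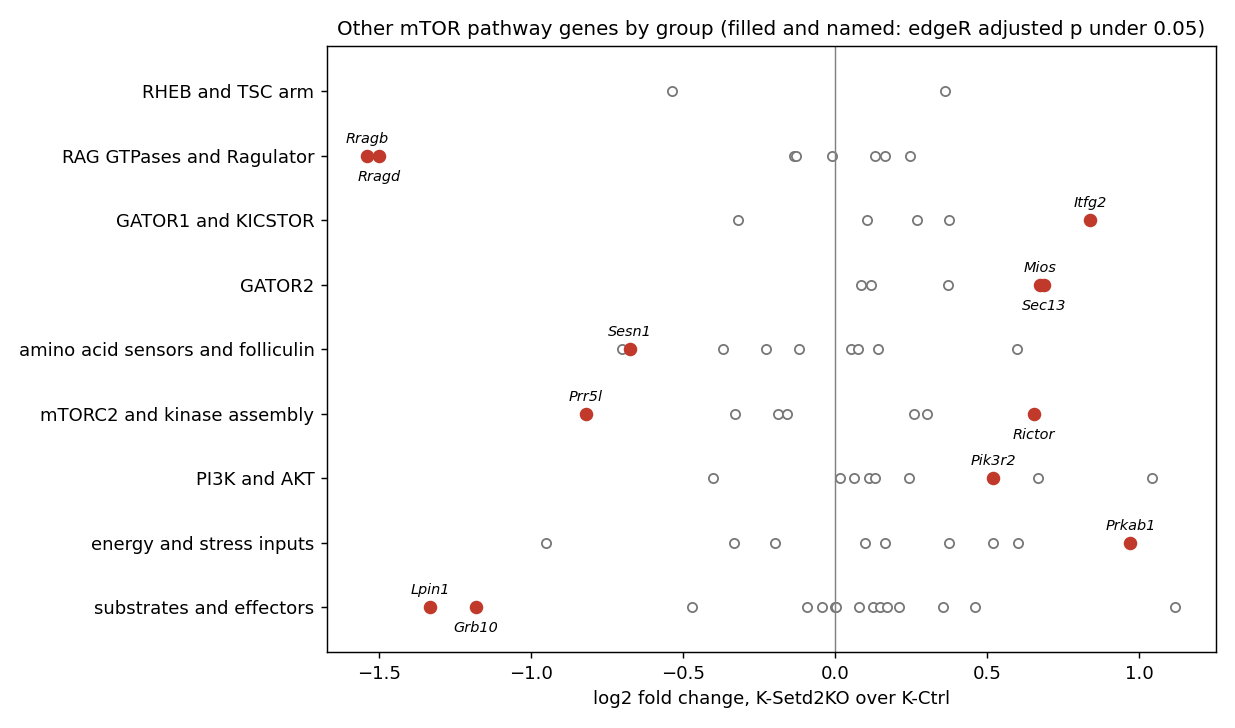
Log2 fold change of *K-Setd2KO* over *K-Ctrl* (horizontal axis) for the 69 other pathway genes tested, 1 point per gene in the row of its group, with n = 4 tumors per genotype. Filled, named points are the 6 genes called higher and the 6 called lower; the GATOR and KICSTOR groups hold 3 of those called higher, and both RAG subunit genes called are at about -1.5.

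The RHEB and TSC list held *Rhebl1* and *Tbc1d7* besides the 3 genes above, and neither was called. *Tbc1d7*, the gene of the third TSC complex subunit, had the smaller p, with 4.60 ± 1.46 CPM in *K-Ctrl* against 5.89 ± 0.569 CPM in *K-Setd2KO* (log2 fold change 0.36, edgeR adjusted p = 0.445). Of the 8 other RAG GTPase and Ragulator genes, *Rragb* and *Rragd* were called lower and 6 were not called, among them all 5 genes of Ragulator, the lysosomal anchor of the RAG proteins, with log2 fold changes of -0.13 to 0.25.

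The GATOR1 complex switches RagA and RagB off, KICSTOR holds GATOR1 at the lysosome, and GATOR2 restrains GATOR1. Of 5 GATOR1 and KICSTOR genes, 1 was called higher, the KICSTOR subunit gene *Itfg2*. *Itfg2* was at 11.5, 14.3, 14.4 and 19.3 CPM in *K-Ctrl* and at 20.9, 24.8, 29.8 and 31.0 CPM in *K-Setd2KO*. Its groups did not overlap, and the log2 fold change was 0.84 ± 0.20 (SE; edgeR adjusted p = 0.0280). The adjusted p of *Itfg2* was 0.0724, 0.0683 and 0.0820 without *K-Ctrl* replicate 1, 2 or 3, and 0.0713 and 0.0612 without *K-Setd2KO* replicate 3 or 4. With sex as a term it was 0.0516, at a log2 fold change of 0.91. Exons of *Itfg2* overlap those of *Nrip2*, which had a log2 fold change of 0.95 (edgeR adjusted p = 0.0929). The GATOR1 genes themselves were not called, *Depdc5* at -0.32, *Nprl2* at 0.27 and *Nprl3* at 0.37 on the log2 fold change scale.

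Of the 5 GATOR2 genes, *Mios* and *Sec13* were called higher. *Mios* was at 23.6, 25.5, 28.5 and 24.1 CPM in *K-Ctrl* and at 36.8, 35.8, 54.6 and 34.9 CPM in *K-Setd2KO*. *Sec13*, whose product also serves in the nuclear pore and in vesicle coats, was at 44.1, 48.6, 45.1 and 43.0 CPM in *K-Ctrl* and at 89.8, 52.6, 71.1 and 77.7 CPM in *K-Setd2KO*. Neither gene's groups overlapped, and the log2 fold changes were 0.67 ± 0.17 and 0.69 ± 0.16 (SE), with edgeR adjusted p of 0.0344 and 0.0267. Without 1 tumor, *Mios* kept its call in 2 of 8 fits (those without *K-Setd2KO* replicate 2 or 4) and *Sec13* in 1 (without *K-Setd2KO* replicate 2). The highest adjusted p was 0.0928 for *Mios*, without *K-Ctrl* replicate 1, and 0.0776 for *Sec13*, without *K-Ctrl* replicate 3. With sex as a term *Sec13* was not called (adjusted p = 0.0775).

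*Itfg2*, *Mios* and *Sec13* lie on chromosome 6, on which 15.4% of the 839 genes tested were called higher, beside 4.97% of all genes. The median gene of chromosome 6 was shifted against the control mean by 0.31, -0.05, 0.32 and 0.36 on the log2 scale in *K-Setd2KO* replicates 1 to 4, and by -0.03 to 0.02 in the control tumors. In *K-Setd2KO* replicate 2, the tumor with no such shift, *Itfg2*, *Mios* and *Sec13* were at 24.8, 35.8 and 52.6 CPM, above the highest control tumor at 19.3, 28.5 and 48.6 CPM. For *Sec13* that tumor was the lowest of *K-Setd2KO*, and the 3 tumors with the shift were at 71.1 to 89.8 CPM. The part of the chromosome 6 shift in these 3 calls was not tested.

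Of 9 genes for amino acid sensors and the folliculin complex, 1 was called. *Sesn1*, which encodes a sestrin that restrains mTORC1 when leucine is scarce, was at 30.4, 25.97, 23.96 and 19.99 CPM in *K-Ctrl* and at 16.1, 16.1, 17.2 and 13.4 CPM in *K-Setd2KO*. No *K-Setd2KO* tumor reached the lowest control, and the log2 fold change was -0.67 ± 0.17 (SE; edgeR adjusted p = 0.0314). The call was lost without *K-Ctrl* replicate 1, 2 or 3 and without *K-Setd2KO* replicate 1, 3 or 4, with adjusted p of 0.0569 to 0.0916, and with sex as a term (0.0825). *Sesn2*, its stress-induced relative, had the opposite sign and did not pass (log2 fold change 0.60, edgeR adjusted p = 0.132), and *Fnip2*, a folliculin partner, was at -0.70 (adjusted p = 0.0965).

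Of 7 genes for mTORC2 and the assembly of mTOR kinases, *Rictor* was called higher and *Prr5l* lower. *Rictor*, the subunit that defines mTORC2 as Raptor defines mTORC1, was at 86.7, 121, 104 and 86.7 CPM in *K-Ctrl* and at 145, 167, 150 and 165 CPM in *K-Setd2KO*. Every *K-Setd2KO* tumor was above the highest control, and the log2 fold change was 0.65 ± 0.13 (SE; edgeR adjusted p = 0.0174). The adjusted p was 0.0510 without *K-Ctrl* replicate 1, 0.0504 without *K-Ctrl* replicate 3 and 0.0502 with sex as a term. *Prr5l*, which encodes another mTORC2 binding protein, was at 14.8, 16.6, 15.8 and 14.5 CPM in *K-Ctrl* and at 10.02, 9.18, 8.03 and 7.70 CPM in *K-Setd2KO*. These groups did not overlap either, with a log2 fold change of -0.82 ± 0.16 (SE; edgeR adjusted p = 0.0155, and 0.0537 without *K-Ctrl* replicate 3). 

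PI3K and AKT carry the growth factor signal to TSC2, and 1 of their 9 genes was called. *Pik3r2*, a regulatory subunit of PI3K, was at 41.1, 44.1, 46.3 and 52.1 CPM in *K-Ctrl* and at 59.6, 78.2, 61.7 and 64.0 CPM in *K-Setd2KO*. Its log2 fold change was 0.52 ± 0.13 (SE; edgeR adjusted p = 0.0329), and the call was lost without *K-Ctrl* replicate 1, 2 or 3 and without *K-Setd2KO* replicate 2, 3 or 4, with adjusted p of 0.0532 to 0.0953, and with sex as a term (0.0921). *Akt1* and *Akt2*, at 0.13 and 0.11 on the log2 fold change scale, were not called (edgeR adjusted p = 0.512 and 0.515).

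Of 9 genes for energy and stress inputs, *Prkab1*, a regulatory subunit of the energy sensor AMPK, was called higher. It was at 54.97, 60.2, 78.3 and 77.5 CPM in *K-Ctrl* and at 142, 169, 97.6 and 122 CPM in *K-Setd2KO*. Again no control tumor reached the lowest *K-Setd2KO* tumor, and the log2 fold change was 0.97 ± 0.19 (SE; edgeR adjusted p = 0.0154). The call held without each tumor in turn and was lost with sex as a term (adjusted p = 0.0646). Over all alternative settings *Prkab1* had a log2 fold change of 0.83 to 1.10. Its relative *Prkab2* had the opposite sign and did not pass (log2 fold change -0.95, edgeR adjusted p = 0.0719).

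Of 15 substrate and effector genes tested besides *Eif4ebp1*, 2 were called, both lower. *Lpin1*, a phosphatidate phosphatase that mTORC1 keeps out of the nucleus, was at 91.5, 46.6, 73.6 and 40.2 CPM in *K-Ctrl* and at 24.1, 31.3, 23.6 and 21.1 CPM in *K-Setd2KO*. The groups did not overlap, and the log2 fold change was -1.33 ± 0.27 (SE; edgeR adjusted p = 0.0158, and 0.0625 with sex as a term). Over all alternative settings that value was -1.49 to -1.10. *Grb10*, an adaptor that mTORC1 stabilizes and that dampens insulin receptor signaling, was at 64.0, 47.2, 40.9 and 78.5 CPM in *K-Ctrl* and at 23.5, 42.8, 17.3 and 17.5 CPM in *K-Setd2KO*. *K-Setd2KO* replicate 2 was above *K-Ctrl* replicate 3, so the groups overlapped, and the log2 fold change was -1.18 ± 0.33 (SE; edgeR adjusted p = 0.0465, exact permutation p = 0.0571). The call of *Grb10* was kept without *K-Setd2KO* replicate 2 and lost without any other tumor, with adjusted p of 0.0640 (without *K-Ctrl* replicate 3) to 0.112 (without *K-Setd2KO* replicate 3), and with sex as a term it was 0.110. Its log2 fold change was -1.56 to -0.995 over all alternative settings. The S6 kinase gene *Rps6kb1*, the cap-binding protein gene *Eif4e* and *Eif4ebp2* had log2 fold changes of 0.01, 0.00 and -0.09 and were not called (edgeR adjusted p = 0.983, 0.996 and 0.753).

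Across the 8 tumors, the genes whose log2 CPM followed *Deptor* most closely were *Sft2d2* (Pearson r = 0.992), *Gm43719* (0.982) and *Ccnd3* (0.971), and 149 genes had r above 0.9. The tumors share the difference between genotypes and in immune markers, so these values are a description. *Sft2d2*, a vesicle transport gene, was at 184 ± 16.7 CPM in *K-Ctrl* against 148 ± 8.80 CPM in *K-Setd2KO* (log2 fold change -0.32, edgeR adjusted p = 0.0883). *Ccnd3*, the gene of cyclin D3, was at 62.8 ± 10.7 and 43.2 ± 2.12 CPM (log2 fold change -0.54, edgeR adjusted p = 0.0387).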

How the data were processed

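RNA of 8 tumors was read as paired ends from poly(A) libraries made with a stranded kit. The design text speaks of flash-frozen tumors and the extraction text of cell lines, which was not resolved. The authors deposited 1 table of raw counts per gene, with no normalization. The submitters' processing notes name STAR 2.5.2b, featureCounts 1.5.0-p1 and GRCm38.p4. The annotation release and strand setting are not given in the sources used here. Symbols came from GENCODE M21 (48349 of 48709 identifiers, 99.26%).

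Counts were fitted in R 4.3.3 with edgeR 4.0.16 (filterByExpr, TMM, robust quasi-likelihood, genotype alone), with Benjamini-Hochberg adjustment and SE as the log2 fold change over the square root of F. The study used DESeq2, which was run as an alternative (version 1.42.0), as was limma voom 3.58.1. The fit was tested on simulated data. Named were *Setd2*, the 10 genes, pathway genes past the threshold (up to 15), the smallest p of a pathway list with none, and the 3 genes most correlated with each called gene; others named were chosen after their values were seen. Some genes are not reported here and were left out of the pathway lists and their counts. Genes and lists were chosen with earlier results of these data known. Of pairs of tumors with the same replicate number, deviations correlated at -0.0742 to 0.191, so tumors were not treated as paired. CPM of 3 counts was 0.141 to 0.517, and depth covers counting error only.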

Additional observations from a re-analysis of the deposited data

Results flagged for a closer look

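Among 66 groups of 4 tumors checked, 5 had 1 tumor set apart from the other 3 by Dixon's test, where chance gives about 1 in 20, or 3.3. *Rragc* in *K-Setd2KO* replicate 4 was at 82.5 CPM, beside 94.5 to 96.7 CPM in the other 3. *Rragd* in *K-Setd2KO* replicate 2 was at 19.58 CPM, beside 5.31 to 7.19 CPM. *Mios* in *K-Setd2KO* replicate 3 was at 54.63 CPM, beside 34.9 to 36.8 CPM. The log2 ratio of *Rptor* to *Mtor* in *K-Setd2KO* replicate 4, the shallowest library, was -0.4759, beside -1.03 to -0.99. The log2 ratio of *Eif4ebp1* to *Eif4ebp2* in *K-Ctrl* replicate 2 was -2.337, beside -2.17 to -2.15.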

How the results depend on the processing

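*Deptor* was called lower in each of 18 alternative fits, and no other gene of the 10 was called in any. Of the 14929 genes tested, 1897 were called, against 3194 by DESeq2, 1237 with sex as a term, 1341 with the replicate number as a block and 763 to 2058 without 1 tumor (763 without *K-Ctrl* replicate 3). Of the pathway genes, 6 were called higher, against 10 by DESeq2, 3 with the replicate block, 1 with sex as a term and 1 to 6 without 1 tumor. The 6 called lower became 9 by DESeq2, 2 with no filter on low counts, 3 with the replicate block, 2 with sex as a term, 3 in thinned libraries and 1 to 7 without 1 tumor. With the replicate block, *Rragb*, *Sec13*, *Sesn1*, *Pik3r2*, *Prkab1* and *Grb10* lost their calls (adjusted p 0.0506 to 0.110). With no filter *Rragb*, *Rragd*, *Sesn1*, *Pik3r2* and *Grb10* lost theirs (0.0537 to 0.0835), and in thinned libraries *Rragb*, *Rragd*, *Mios* and *Grb10* (0.0507 to 0.0617). The tumors share only a replicate number, and 2 of 8 correlated best with the tumor of their own number. The log2 fold change of *Tsc1* turned to -0.0119 with a minimum of 10 counts in every tumor, to -0.0377 in thinned libraries and to -0.0672 to 0.0767 without 1 tumor. Without 1 tumor, *Mtor* ran from -0.124 to 0.0568 and *Rheb* from -0.0374 to 0.0314. The level of *Rheb* in *K-Ctrl* was 14.8 CPM per kb, against 14.1, when mitochondrial genes were left out, since the library total is then smaller. Beyond fewer genes, tumors or counts in a fit, the cause was not tested. With 4 tumors a group, *Mlst8* and *Eif4ebp1* were the least precisely measured of the 10.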
